A study of Mus musculus with 38 samples.

Results

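Neutrophils carry their effector proteins in granules, and transcripts of neutrophil genes were followed here as a measure of blood leukocytes in a dissected tissue. The measure is limited, as genes of granule proteins are transcribed mainly in marrow. Low values of those genes therefore say little about blood neutrophils. A panel of 8 neutrophil and myeloid transcripts, only some of them of granule proteins, was followed out of 18820 genes with a singly named probe. The tissues were liver and whole brain of mice of the inbred strain C57BL/6J. For 30 days the mice had received haloperidol, a blocker of dopamine D2 receptors used as an antipsychotic, or placebo, from pellets with slow release. The 4 groups were 9 haloperidol livers, 9 placebo livers, 10 haloperidol brains and 10 placebo brains, and the labels name no genotype other than the strain and give no age or sex. Arrays carry a tag of a digit and a letter, such as 1L, and the labels do not say what the digit marks or whether the mice were perfused before dissection. The genes were chosen by name with earlier results of these arrays in view, and the probe of each was to be selected by its mean over all 38 arrays. Each of the 8 symbols had exactly 1 probe, so that this choice had no effect.

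S100a8 and S100a9 encode the partners of calprotectin, the calcium- and zinc-binding complex that fills the cytosol of neutrophils. Mpo, myeloperoxidase, and Elane, neutrophil elastase, are stored in primary granules and are transcribed mainly in bone marrow precursors. Camp, the cathelicidin antimicrobial peptide, and Ngp, neutrophilic granule protein, belong to secondary granules and are likewise transcribed mainly before neutrophils leave the marrow. Csf3r encodes the receptor of G-CSF, the growth factor of the lineage. Ccl6 encodes a CC chemokine of rodents that is made by macrophages, microglia and other myeloid cells as well as by neutrophils. In bulk tissue, fewer cells of a type and less RNA per cell cannot be told apart.

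In mouse build GRCm38.p6, S100a8 (chr3:90669071-90670034) and S100a9 (chr3:90692630-90695721) lie side by side, and Camp (chr9:109847377-109849456) and Ngp (chr9:110419808-110423012) share another chromosome. Ccl6 (chr11:83587886-83593087) and Mpo (chr11:87793784-87804412) lie on chromosome 11, Elane at chr10:79886312-79888216 and Csf3r at chr4:126023441-126044975. The promoters of the 2 members that passed the test in brain follow, as the 300 bases that RefSeq's promoter table gives for each, 5′ to 3′ on the gene's strand. The Ccl6 window spans the gene's start given above, whereas the Csf3r window lies inside the gene's span and does not hold that start. Capitals mark AGGAAG, a core read by PU.1 (the product of Spi1) and other ETS factors, and TTGCAT, which begins with letters found in C/EBP binding sites, on either strand (CTTCCT and ATGCAA when reversed). Both motifs were picked after the sequences had been looked at.
Ccl6 (chr11:83593038-83593337, minus strand): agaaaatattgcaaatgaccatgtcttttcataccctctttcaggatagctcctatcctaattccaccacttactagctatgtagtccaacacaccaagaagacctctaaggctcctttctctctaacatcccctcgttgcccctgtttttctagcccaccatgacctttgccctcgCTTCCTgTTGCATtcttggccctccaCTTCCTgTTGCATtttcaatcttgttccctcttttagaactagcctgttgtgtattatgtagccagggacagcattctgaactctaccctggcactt
Csf3r (chr4:126024409-126024708, plus strand): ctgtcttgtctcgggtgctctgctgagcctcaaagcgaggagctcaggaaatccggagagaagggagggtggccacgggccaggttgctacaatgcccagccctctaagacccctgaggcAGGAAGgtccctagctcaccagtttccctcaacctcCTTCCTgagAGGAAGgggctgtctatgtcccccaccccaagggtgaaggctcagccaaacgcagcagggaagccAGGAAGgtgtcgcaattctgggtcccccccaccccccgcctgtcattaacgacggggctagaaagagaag
The Ccl6 window held AGGAAG 2 times and TTGCAT 2 times, within a run of 14 bases that occurs at bases 178 and 204 of the window. Of 27025 mouse promoters of this length, 35.1% held AGGAAG, 8.47% held it 2 or more times, 10.7% held TTGCAT and 0.211% had the motifs within 12 bases of each other. The Csf3r window held AGGAAG 4 times and no TTGCAT. Among the other members, AGGAAG occurred 3 times in the Mpo window, 2 times each in those of S100a8 and Camp, 1 time in that of Elane and 0 times in those of S100a9 and Ngp, and none of these 6 held TTGCAT. The matches describe letters only.

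Values are log2 expression values of the arrays. Genes in the lowest 33.3% by mean over a tissue's arrays, below 5.52 in brain and 3.92 in liver, are called dim here and were left out of the tests, which left 12547 genes per tissue. Of the 8 members, 3 stood above this limit in liver (Ccl6, S100a9 and Csf3r) and 2 in brain (Ccl6 and Csf3r). The tissues matched their labels: all 7 measured hepatocyte genes were above the limit in liver against 2 in brain, and 1 of 5 neuronal genes was above it in liver against all 5 in brain. Some brain arrays stood apart. Haloperidol 4T had the liver transcript Alb at 11.11, against 3.93 to 4.51 in the others, and 6 arrays (haloperidol 1R, 2N and 3B and placebo 1L, 2R and 4R) had the pituitary transcript Gh above 6. The array median was 6.19 ± 0.072 in haloperidol brains and 6.33 ± 0.044 in placebo brains (SD, n = 10 each), and 4.89 ± 0.090 in haloperidol livers and 4.80 ± 0.082 in placebo livers (SD, n = 9 each).

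In brain, Ccl6 was the member that changed most. It ranged over 5.64, 5.95 and 6.23 (lowest, median and highest) in haloperidol brains, against 5.05, 5.36 and 5.62 in placebo brains. All 10 haloperidol arrays lay above the highest placebo array, so the groups did not overlap. Such separation was found in 13 of the 12547 genes tested in brain (0.104%). The means were 5.92 ± 0.20 in haloperidol and 5.37 ± 0.17 in placebo brains (SD, n = 10 each), a log2 difference of 0.55 (1.47-fold, SE 0.082, limma adjusted p = 0.00191). The placebo mean lay below the limit for dim genes, so Ccl6 entered the test only through its haloperidol arrays. With no filter on dim genes, the 95% interval of the difference was 0.38 to 0.72 and the limma adjusted p 0.00269.

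**Figure D1:**
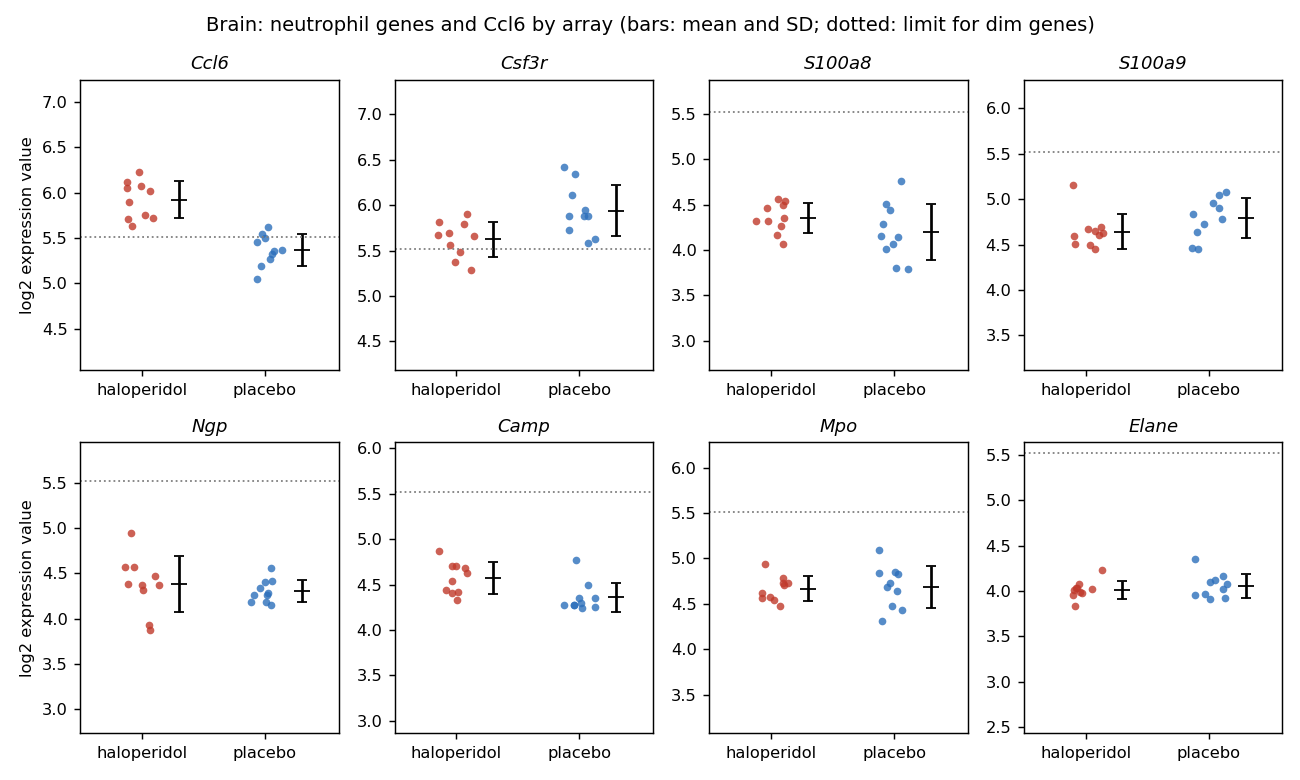
Log2 expression values of the 8 genes in each brain array, haloperidol left (10 arrays) and placebo right (10 arrays), with bars for mean and SD and a dotted line at the limit for dim genes (5.52). Ccl6 is the gene whose groups do not overlap, Csf3r is lower in haloperidol brains with overlap, and the other 6 lie below the line in every array.

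Ccl6 in haloperidol 4T, the array with Alb, was 5.71, the second lowest of its group. Without the 6 arrays with Gh, an alternative chosen after seeing the data, the Ccl6 difference was 0.56 (limma adjusted p = 0.00314), and with placebo 1L and haloperidol 4N and 4T left out it was 0.55 (limma adjusted p = 0.0108). By tag digit the difference was 0.43 in digit 1, 0.38 in digit 2, 0.92 in digit 3 and 0.48 in digit 4, each from 5 arrays. Ccl6 itself had a limma adjusted p of 0.997 for differences between digits in brain, where 0.135% of genes passed that test. Across all genes tested in brain, 15.2% were called higher and 15.2% lower, and the median gene changed by -0.02. Subtracting the array medians moved that median to 0.12 and the Ccl6 difference to 0.69. The subtraction shifts every gene by the same amount, so the distance of Ccl6 from the median gene, 0.57, could not change. With the array median as a covariate, Ccl6 differed by 0.48 (limma adjusted p = 0.919), and with the first principal component by 0.41 (limma adjusted p = 0.487). No gene passed in either of those fits, with 550 and 913 at an unadjusted p under 0.05, and the array median differed between the groups as given above.

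Csf3r moved the other way. It had 5.29, 5.67 and 5.90 (lowest, median and highest) in haloperidol brains, against 5.58, 5.88 and 6.42 in placebo brains. All 10 haloperidol arrays lay below the placebo mean, and 4 lay below the lowest placebo array. The means were 5.62 ± 0.20 in haloperidol and 5.94 ± 0.28 in placebo brains (SD, n = 10 each), so Csf3r fell by 0.32 on the log2 scale (SE 0.10, limma adjusted p = 0.0225). This call ended when array medians were subtracted, where the difference was -0.18 (limma adjusted p = 0.166). The distance from the median gene was -0.30, which the subtraction cannot change. The call ended also without the 6 arrays with Gh (difference -0.28, limma adjusted p = 0.105). By digit Csf3r differed by -0.57, -0.24, -0.43 and 0.03 in digits 1 to 4.

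The 6 other members were dim in brain, and none was tested with the filter. Camp, the cathelicidin gene, had 4.33, 4.58 and 4.87 (lowest, median and highest) in haloperidol brains, against 4.25, 4.29 and 4.77 in placebo brains. Of the haloperidol arrays, 9 of 10 lay above the placebo mean, and the groups overlapped. With no filter its difference of 0.21 (95% interval 0.058 to 0.37) had a limma adjusted p of 0.0496. Without a filter 3 of the 8 members passed, Ccl6 and Camp higher and Csf3r lower, where 9.99% of all 18820 genes were called higher and 8.84% lower.

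S100a8 averaged 4.36 ± 0.16 in haloperidol and 4.20 ± 0.31 in placebo brains, a difference of 0.16 (95% interval -0.05 to 0.37). S100a9 averaged 4.64 ± 0.20 in haloperidol and 4.79 ± 0.22 in placebo brains, a difference of -0.15 (95% interval -0.33 to 0.04). Both intervals include 0, and the ranges of either gene overlapped between groups. Of the 10 haloperidol arrays, 8 lay above the placebo mean for S100a8 and 9 lay below it for S100a9. Ngp averaged 4.38 ± 0.31 in haloperidol and 4.30 ± 0.12 in placebo brains. Of the primary granule genes, Mpo averaged 4.67 ± 0.14 in haloperidol and 4.69 ± 0.23 in placebo brains, and Elane 4.02 ± 0.10 in haloperidol and 4.06 ± 0.13 in placebo brains (SD, n = 10 each). The difference of Elane was -0.04 as deposited and 0.095 with array medians subtracted, that of Mpo -0.02 and 0.12, and that of S100a9 -0.15 and -0.0097.

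In liver, no member passed the test. Ccl6 had 5.12, 5.70 and 6.44 (lowest, median and highest) in haloperidol livers, against 5.36, 6.04 and 6.58 in placebo livers. The groups overlapped, with 7 of 9 haloperidol arrays below the placebo mean. The means were 5.76 ± 0.41 in haloperidol and 6.03 ± 0.46 in placebo livers (SD, n = 9 each), a difference of -0.27 (SE 0.19, limma adjusted p = 0.610). Csf3r averaged 4.36 ± 0.31 in haloperidol and 4.27 ± 0.30 in placebo livers, a difference of 0.09 (SE 0.13, limma adjusted p = 0.835). In limma 0% of all genes passed in liver, with 1316 at an unadjusted p under 0.05 and a smallest adjusted p of 0.251, and 0 passed in the exact Wilcoxon test.

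S100a8 and S100a9 varied most between placebo livers. S100a8 had 2.59, 2.92 and 3.42 (lowest, median and highest) in haloperidol livers, against 2.61, 3.23 and 4.09 in placebo livers. S100a9 had 4.40, 4.76 and 5.34 in haloperidol livers, against 4.24, 4.92 and 6.18 in placebo livers. For both genes 3 placebo arrays, 1L, 1N and 1T, lay above every haloperidol array, and the other 6 placebo arrays did not. S100a9 differed by -0.29 (SE 0.20, limma adjusted p = 0.610), and S100a8, dim in liver, by -0.30.

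**Figure D2:**
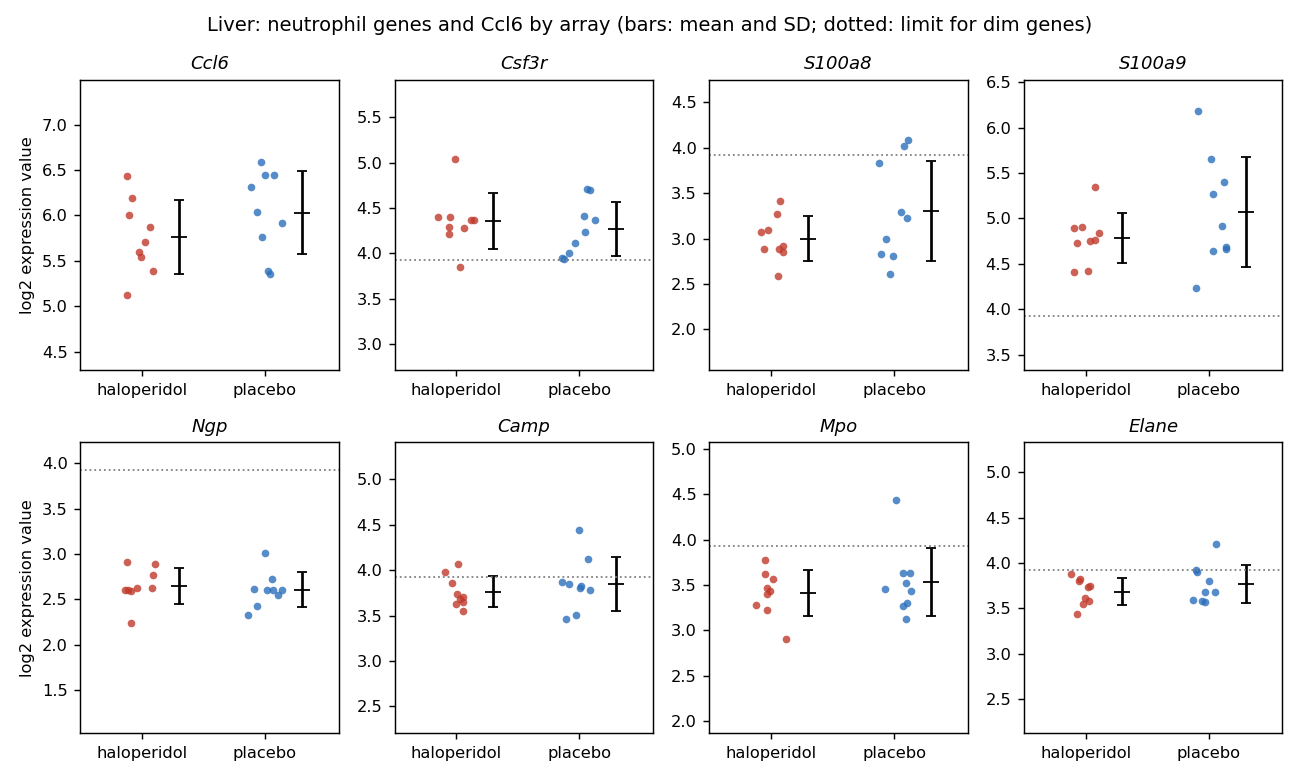
Log2 expression values of the 8 genes in each liver array, haloperidol left (9 arrays) and placebo right (9 arrays), with bars for mean and SD and a dotted line at the limit for dim genes (3.92). All 8 genes overlap between groups, and 3 placebo arrays stand high for S100a8 and S100a9.

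The 4 remaining members had small differences in liver. Mpo averaged 3.41 ± 0.25 in haloperidol and 3.53 ± 0.38 in placebo livers, Camp 3.76 ± 0.17 in haloperidol and 3.85 ± 0.30 in placebo livers, and Elane 3.68 ± 0.15 in haloperidol and 3.77 ± 0.21 in placebo livers. Ngp averaged 2.65 ± 0.20 in haloperidol and 2.61 ± 0.19 in placebo livers (SD, n = 9 each). Each of these differences was smaller than the SD within its groups.

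The 3 high placebo livers share the tag digit 1 with 2 haloperidol livers, 1B and 1R. For S100a8 the placebo arrays of that digit had 4.03, 4.09 and 3.83, against 2.89 and 3.42 in the haloperidol arrays. The difference was -0.83 in digit 1, -0.27 in digit 2, 0.18 in digit 3 and -0.17 in digit 4. For S100a9 it was -0.96, -0.22, 0.13 and 0.08 in the same order, so the sign turned between digits. Without the digit 1 arrays, an alternative chosen after seeing the data, S100a9 differed by 0.05 (limma adjusted p = 0.968).

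Ccl6 in liver was high in digit 1 in both treatments. All 5 digit 1 arrays lay between 6.19 and 6.58, with a mean of 6.40 ± 0.15, against 5.70 ± 0.36 in the 13 others (SD), of which placebo 3N, at 6.44, lay in the same range. The differences between digits did not pass, with limma adjusted p = 0.0788 for Ccl6 and 0.140 for S100a9, where 1.11% of genes passed in liver. What the digit stands for was not given in the sources used here, and its part in these levels was not tested further.

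**Figure D3:**
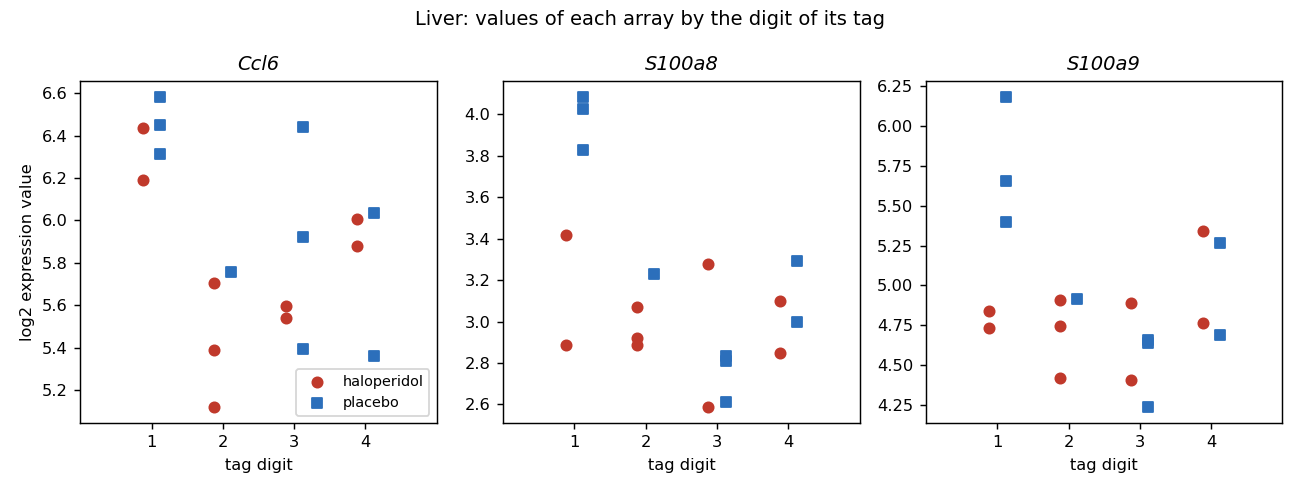
Log2 expression values of Ccl6, S100a8 and S100a9 in each liver array by the digit of its tag, haloperidol as circles and placebo as squares. The 5 digit 1 arrays are all high for Ccl6, between 6.19 and 6.58, a range that also holds placebo 3N, whereas for S100a8 and S100a9 only the 3 placebo arrays of that digit stand above the haloperidol arrays.

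The treatment effects in the tissues were compared directly in a fit of all 38 arrays. The effect on Ccl6 in liver minus that in brain was -0.82 (SE 0.20, limma adjusted p = 0.00469, 95% interval with no filter -1.22 to -0.41). That for Csf3r was 0.41 (SE 0.17, limma adjusted p = 0.0758), which did not pass. So 1 of the 2 members tested in both tissues passed, where 23% of 10869 genes did. With no filter on dim genes Ccl6 alone of the 8 passed (limma adjusted p = 0.00734). Leaving out placebo liver 1L, placebo liver 1T or haloperidol liver 4L brought Csf3r past the threshold (limma adjusted p = 0.0476, 0.0475 and 0.0326).

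**Figure D4:**
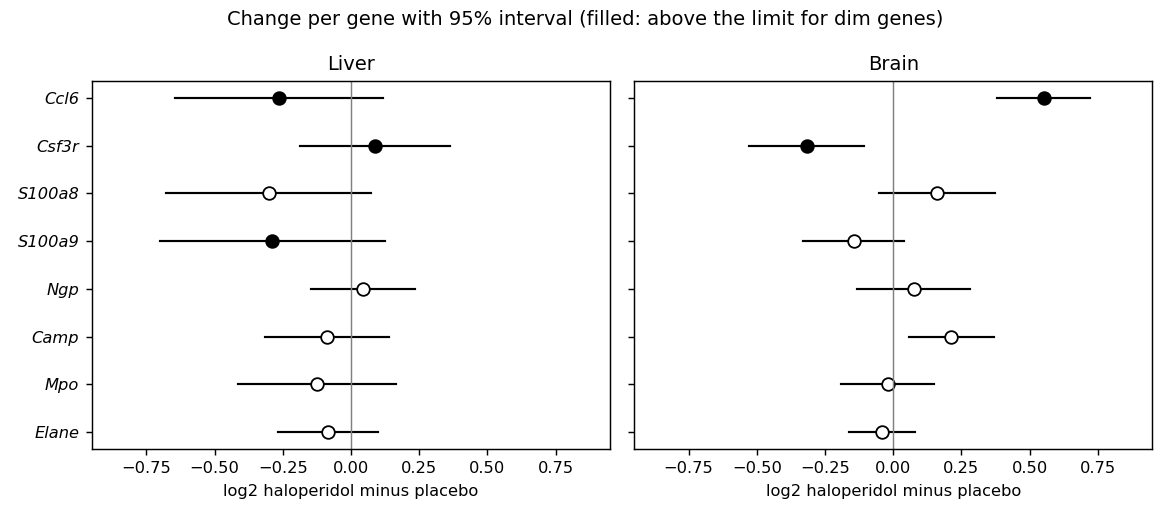
Log2 difference of haloperidol minus placebo for the 8 genes in liver (left panel) and brain (right panel), with 95% intervals from the fit with no filter; filled points lie above the limit for dim genes. In brain the intervals of Ccl6 and Camp lie above 0 and that of Csf3r below it, while all 8 liver intervals include 0.

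Each of 18 tags occurs on an array of either tissue. Members were compared between organs over these tags, after centring on group means. Pearson's r over the 18 tags ran from -0.23 for Ccl6 to 0.36 for Camp, and the smallest adjusted permutation p of the 8 relations was 0.652. For S100a9 r was 0.34 (Spearman's rho 0.38), and 0.61 without the tags farthest from the median, 4L and 4B. For Camp r was 0.05 without 1N and 2T. Tags were not shown to mark mice. Each shared tag had the same treatment in both tissues, and across all genes 3 of 18 arrays matched best the array of their own tag. That match cannot decide the question, as brain and liver of a mouse need not deviate together.

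Other neutrophil genes were mostly dim in brain. Of 30 with a probe, 7 were above the limit, and 3 of these rose and 0 fell, with a median difference of 0.20 against -0.02 for all genes, of which 15.2% were called higher and 15.2% lower. As no gene passed with the array median or the first component as a covariate, all calls named from these lists in brain ended in those fits. Lyz2, which encodes the lysozyme of myeloid cells, averaged 8.01 ± 0.78 in haloperidol and 6.95 ± 0.37 in placebo brains (limma adjusted p = 0.00532), and the difference of 1.06 was 0.093 with the first component as a covariate. Cyba, the p22phox subunit of the NADPH oxidase, averaged 8.56 ± 0.66 in haloperidol and 7.79 ± 0.17 in placebo brains (limma adjusted p = 0.00746), and its difference turned to -0.043 with that covariate. Pglyrp1, a peptidoglycan recognition protein of granules, rose by 0.40 (limma adjusted p = 0.0110) and is named after its value was seen. The Pglyrp1 call ended with placebo 1L and haloperidol 4N and 4T left out (0.33, limma adjusted p = 0.0506) and without the 6 arrays with Gh (0.30, limma adjusted p = 0.0724). The dim annexin gene Anxa1 averaged 5.54 ± 0.37 in haloperidol and 5.02 ± 0.28 in placebo brains. Summed over the 30 probes, the log2 values ran from 144.6 to 152.2 in haloperidol and from 141.4 to 147.0 in placebo brains.

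Markers of other blood cells were set beside the panel. Of 5 erythroid genes with a probe, 2 were above the limit in brain. Both rose, where 15.2% of all genes tested were called higher. Alas2, which starts haem synthesis in red cell precursors and persists as RNA in reticulocytes, averaged 7.79 ± 0.27 in haloperidol and 6.94 ± 0.27 in placebo brains (limma adjusted p = 0.00105) and was among the 13 genes without overlap. Bpgm, the bisphosphoglycerate mutase of red cells, rose by 0.27 (limma adjusted p = 0.0185). The Bpgm call ended in the exact Wilcoxon test (adjusted p = 0.0550) and with placebo 1L and haloperidol 4N and 4T left out (limma adjusted p = 0.0688), and its difference was -0.0041 with the first component as a covariate. The summed log2 values of the 5 probes, out of 14 genes listed, ran from 27.78 to 30.52 in haloperidol and from 26.01 to 27.71 in placebo brains. These sums did not overlap, but they hold Alas2, which did not overlap by itself (lowest haloperidol 7.47, highest placebo 7.30). The share of comparable sums without overlap was not computed. In liver Alas2 averaged 9.03 ± 0.16 in haloperidol and 9.31 ± 0.11 in placebo livers (limma adjusted p = 0.362), and 0 of 3 erythroid genes tested passed.

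Leukocyte and platelet markers in brain gave fewer calls. Of 6 platelet genes 4 were above the limit and 0 passed, with Ppbp at a difference of 0.42 (limma adjusted p = 0.0526). None of 3 monocyte genes tested passed, nor did Cd74, the 1 gene tested of 10 B and plasma cell genes. All 12 T and NK cell genes with a probe were dim. The part of blood in the Ccl6 difference was not tested.

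Microglia, the resident macrophages of brain, also make Ccl6. Of 12 microglial genes tested, 6 rose and 0 fell, with a median difference of 0.24, where 15.2% of all genes were called higher. Of 5 neuronal genes tested, 0 had a difference above 0, with a median of -0.16. An unadjusted p under 0.05 was found for 3 of them, and for 5526 of all 12547 genes tested in brain. Only Slc17a7 was called lower (-0.20, limma adjusted p = 0.0425), where 15.2% of all genes were. With array medians subtracted Slc17a7 differed by -0.067 (limma adjusted p = 0.527). Aif1, the calcium-binding protein IBA1, averaged 6.14 ± 0.29 in haloperidol and 5.57 ± 0.26 in placebo brains (limma adjusted p = 0.00424), the adaptor gene Tyrobp 8.38 ± 0.60 in haloperidol and 7.62 ± 0.20 in placebo brains, and the complement gene C1qa rose by 0.30. Tyrobp turned to -0.0085 with the first component as a covariate, and C1qa to -0.039 with the array median. The summed log2 values ran from 90.9 to 97.7 in haloperidol and from 87.8 to 93.4 in placebo brains, with overlap. Their part in the Ccl6 difference was not tested.

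**Figure D5:**
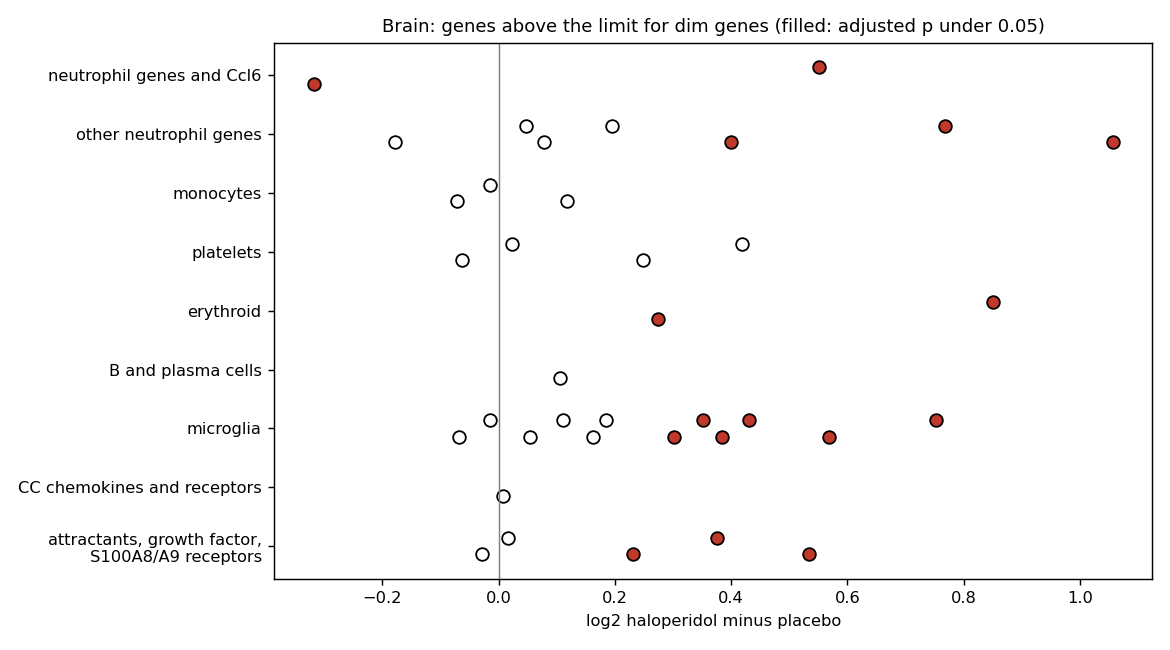
Log2 difference of haloperidol minus placebo in brain for the genes above the limit for dim genes in the lists shown; each point is 1 gene and filled points have a limma adjusted p under 0.05. Ccl6 (0.55) and Csf3r (-0.32) lie apart in the top row, and the filled points of the other lists, which include 6 of 12 microglial genes and 2 of 2 erythroid genes, all lie above 0. Of all 12547 genes tested in brain, 15.2% were called higher.

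Chemokines and regulators around the panel were mostly dim in brain. Of 13 CC chemokine and receptor genes with a probe, 1 was above the limit and it did not pass. Ccl9, a close relative of Ccl6, was dim and averaged 5.33 ± 0.45 in haloperidol and 4.82 ± 0.21 in placebo brains, and its receptor Ccr1 differed by 0.27. Of 5 chemoattractant, growth factor and regulator genes tested, 3 rose, where 15.2% of all genes were called higher. Spi1, which encodes the myeloid factor PU.1, averaged 5.73 ± 0.23 in haloperidol and 5.35 ± 0.22 in placebo brains (limma adjusted p = 0.00749). Cxcr4, the receptor that holds neutrophils in marrow, averaged 5.82 ± 0.46 in haloperidol and 5.29 ± 0.20 in placebo brains (limma adjusted p = 0.0104), and Cxcl12, its ligand, rose by 0.23 (limma adjusted p = 0.0358), a call lost in 7 of the 20 fits without 1 array and in 8 of 15 other alternatives. These 8 included the fit with no filter (limma adjusted p = 0.0518) and that without the 6 arrays with Gh (0.17, limma adjusted p = 0.188). Cxcr4 turned to -0.022 with the first component as a covariate. The placebo means of Spi1 and Cxcr4 lay below the limit, so both entered the test only through their haloperidol arrays.

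In liver, 0 genes of any of these lists passed. Of 16 other neutrophil genes tested, the median difference was -0.05, with Cyba at -0.21 and Lyz2 at -0.35. Hp, haptoglobin, which was also listed as an acute phase gene of liver, differed by 0.12. The 13 genes of Kupffer cells, the liver's resident macrophages, had a median difference of -0.30 against -0.02 for all genes, and 8 had an unadjusted p under 0.05. C1qc differed by -0.35, C1qa by -0.30 and C1qb by -0.32. Their summed log2 values ran from 94.7 to 102.3 in haloperidol and from 95.4 to 105.1 in placebo livers. Their part in the Ccl6 levels was not tested.

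The genes most like Ccl6 from array to array differed between tissues. Likeness was Pearson's r over the arrays of a tissue after centring on treatment means, given as a description over arrays that share processing and any array-wide shift. In liver (18 arrays) the 5 nearest of 12544 genes were Eif4g2 (0.94), Ssr4 (0.92), Yars2 (0.91), Crp (0.91) and Dmac1 (0.90), where the 99th percentile of all genes was 0.83. In brain (20 arrays) they were Slc15a2 (0.74), Cldn14 (0.70), Snrpa1 (0.70), Cela1 (0.69) and Nrtn (0.67), with a 99th percentile of 0.53. For the mean of S100a8 and S100a9 they were Olfr1383 (0.83), Gkap1 (0.73), Rad51c (0.73), Diras2 (0.73) and Prpf6 (0.73) in liver. In brain they were Btnl5-ps (0.78), Alyref2 (0.68), Zfp469 (0.62), Mroh5 (0.61) and Kif6 (0.59). The 8 panel members and the dim genes were left out of this search, so it does not show whether members track each other. Between S100a8 and S100a9 themselves r was 0.71 in liver and 0.30 in brain. Of the genes in the other lists, only the acute phase gene Crp was among these 20.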

How the data were processed

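Affymetrix arrays were made of whole brain and liver RNA, each from 1 mouse per the series' design text. Per the submitters' processing notes, the authors deposited log2 values from the RMA method and used Affymetrix Expression Console; versions are not given. RMA includes a step that equalises array distributions, so a change of total RNA is not visible. The deposited values still had unequal array medians, on average 6.19 in haloperidol and 6.33 in placebo brains. Tissues appeared to have been normalized apart, so levels were compared within a tissue only. The table held 35556 probes, of which 21218 had 1 gene symbol in the platform annotation, which can be old, 1881 several and 12457 none; 21185 matched RefSeq by Entrez ID. Depth does not apply to arrays, and their number limits the precision.

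Haloperidol was compared with placebo by a two-sided limma test (lmFit and eBayes; limma 3.58.1, R 4.3.3), with Benjamini-Hochberg adjustment over all genes tested and a threshold of 0.05. The members and all gene lists were chosen with earlier results of these data known, so their calls are no independent support. Named are all members, of each other list at most the 3 genes of smallest p, with exceptions stated, and the 5 most alike genes. Organs were related by permutation (100000 resamples). Fits were also run on simulated data with independent genes. Such data lack any shift shared across an array, so these runs do not bear on one. Alternatives covered filters, normalization, covariates, blocks, variance models, a Wilcoxon test and left-out arrays. Whether shared tags pair arrays was checked over 18 tags: own-tag correlations ran from -0.32 to 0.25 and 5 exceeded 0.1, so pairing was not shown. No 2 arrays were identical.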

Additional observations from a re-analysis of the deposited data

Results flagged for a closer look

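The effect on Ccl6 in liver minus that in brain was -0.82 log2 units (limma adjusted p = 0.00469), which the interaction contrast itself tested. Single arrays stood far from the rest of their group in 5 of the 32 groups of member values examined by Dixon's test, which chance flags in about 1 of 20 groups. S100a9 was 5.15 in haloperidol brain 4L, with the next array at 4.69. Camp was 4.77 in placebo brain 1N, with the next at 4.50. Csf3r was 5.04 in haloperidol liver 4N (next 4.40), Ngp 2.24 in haloperidol liver 3R (next 2.60) and Mpo 4.43 in placebo liver 1N (next 3.63). The 3 placebo livers of digit 1 that were high for S100a8 and S100a9 were not flagged by this test, which looks at 1 array at a time.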

How the results depend on the processing

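In brain, 2 members were called (Ccl6 and Csf3r), and the count stayed at 2 whichever of the 20 arrays was left out. It was 1 (Ccl6) with array medians subtracted, with quantile normalization, with the exact Wilcoxon test and without the 6 arrays with Gh, 3 with no filter (Camp added), and 0 with the array median or the first component as a covariate. Covariate fits called 0 of all genes in brain, where the array median differed between the treatment groups. Whether the first component also differed between them is not given here. Subtracted array medians gave 4088 genes higher and 467 lower in brain, and leaving out haloperidol 4N and 4T and placebo 1L gave 1189 higher and 1341 lower. Under the covariates these reversed: C1qa (-0.039) and, in liver, Ccl6 (0.016) with the array median; Cyba (-0.043), Bpgm (-0.0041), Tyrobp (-0.0085), Cxcr4 (-0.022) and the neuronal gene Slc17a7 (0.027) with the component. S100a9 in liver turned to 0.048 without digit 1. The causes were not tested. Leaving out 1 array kept Ccl6 in brain between 0.52 and 0.58 (limma adjusted p at most 0.00599) and Csf3r between -0.36 and -0.26 (at most 0.0464), and Cxcl12 lost its call in 7 of 20 such fits. In liver 0 members were called in every setting, and a fit of all 38 arrays called 21 genes higher and 19 lower. For liver minus brain, the count was 1 to 2 over the fits without 1 array, and the replicate block on shared tags, which were not shown to pair arrays, also gave 1 (Ccl6 -0.82, limma adjusted p = 0.00558); all genes then gave 931 higher and 1433 lower. With the lowest 50% of genes left out, no member was tested in brain.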
